A study of Homo sapiens with 8 samples.

Results

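The genes described here are the neurotrophins BDNF, NTF3 and NTF4 and the receptors NTRK2, NTRK3, NGFR and SORT1, 7 of the 37441 genes in the deposited table. They were taken by symbol through their Ensembl identifiers. BDNF was included because its counts are lower in both resistant lines, so its difference between sensitive and resistant cells is a description and carries no test. The libraries came from NCI-H1581 and NCI-H1703, 2 human non-small cell lung carcinoma cell lines that respond to the FGFR inhibitor CPL304110, and from NCI-H1581R and NCI-H1703R, their resistant variants. The variants had been selected over 4 to 6 months in CPL304110, starting at 50 nM and ending at 2.5 µM for NCI-H1581R and 5 µM for NCI-H1703R. Each of the 4 variants was cultured and sequenced in 2 replicates, which gave 8 libraries, and RNA was taken 24 h after fresh medium was added. The sources used here do not state whether that medium held the inhibitor, so selection and drug exposure at harvest cannot be told apart. NCI-H1581 was grown in DMEM/F12 and NCI-H1703 in RPMI 1640, so a difference between the lines cannot be told apart from a difference between the media. A single resistant line was used per parental line and its replicates are repeat platings, so p-values do not cover independent selections.

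Neurotrophins are secreted growth factors that are made as longer precursors and cut into mature ligands. The mature ligands bind TRK receptor tyrosine kinases: BDNF and NT-4 (the product of NTF4) bind that of NTRK2, and NT-3 (the product of NTF3) binds mainly that of NTRK3. The TRK receptors signal through the RAS and MAP kinase, PI3 kinase and phospholipase C gamma routes, which FGF receptors use too. NGFR encodes p75NTR, which binds every mature neurotrophin and, together with sortilin (SORT1), the uncut precursors. Sortilin also sorts BDNF and other cargo inside cells. These genes are best known from neurons, where BDNF supports survival and synaptic change.

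The libraries held between 33800389 and 40031710 counts, and 3 counts in a library correspond to 0.0749 to 0.0897 CPM (counts per 1000000 of the TMM-scaled library total), the limit that a count of 0 allows (counting error only). The labelled carcinoma lines had high VIM, a mesenchymal filament gene, and the summed mesenchymal markers VIM, CDH2 and ZEB1 ranged from 2660 to 6720 CPM. The summed epithelial markers EPCAM, CDH1, KRT8, KRT18 and KRT19 ranged from 6.76 to 75.6 CPM, and all 5 were detected in every library. In NCI-H1703 this sum was 75.6 and 73.3 CPM, and in NCI-H1703R 8.41 and 6.76 CPM. The 6 neuroendocrine and neuronal markers summed to 142 to 158 CPM in NCI-H1581 and NCI-H1581R. In NCI-H1703 and NCI-H1703R they summed to 8.73 to 18.6 CPM, and INSM1 was at 0 throughout. The 5 Schwann and glial markers, which would mark cells known for NGFR, summed to at most 0.35 CPM, with SOX10 and S100B at 0 in all libraries. Blood markers summed to at most 0.399 CPM and endothelial markers to at most 0.449 CPM. The summed squamous markers TP63, KRT5 and KRT6A were at 6.29 and 6.99 CPM in NCI-H1581 and at 27.8 and 32.4 CPM in NCI-H1581R. In NCI-H1703 and NCI-H1703R they reached at most 1.35 CPM. Of these markers, the keratin KRT5 had 0 or 1 count in all 4 first replicates and 35 to 47 counts in all 4 second replicates. The part of these marker differences in the results was not tested.

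BDNF (ENSG00000176697) lies on the minus strand of chromosome 11 from 27654893 to 27722058 (GRCh38, GENCODE v44). It has several alternative first exons, each with its own promoter. RefSeq (GRCh38.p14) gave 5 start sites for it, and the 250 bases before each were searched on both strands for the cAMP response element TGACGTCA, its core TGACG (which is contained in the full element), the E-box CACGTG, the AP-1 site TGANTCA and the EGR site GCGTGGGCG. A single window held an E-box, a motif known for USF1, USF2 and BHLHE40, and another single window held the core TGACG, a motif known for CREB1. Both are shown because these regulator genes are measured below, as letter matches and not as bound sites, with the motif in capitals (CGTCA is TGACG read on the other strand).
BDNF upstream window with an E-box, chr11:27720780-27721029, minus strand: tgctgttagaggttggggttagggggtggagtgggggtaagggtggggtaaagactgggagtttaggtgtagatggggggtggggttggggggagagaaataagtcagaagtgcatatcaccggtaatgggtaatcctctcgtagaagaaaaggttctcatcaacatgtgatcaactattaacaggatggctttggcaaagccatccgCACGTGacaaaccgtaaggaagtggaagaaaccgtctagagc
BDNF upstream window with the core element, chr11:27701622-27701871, minus strand: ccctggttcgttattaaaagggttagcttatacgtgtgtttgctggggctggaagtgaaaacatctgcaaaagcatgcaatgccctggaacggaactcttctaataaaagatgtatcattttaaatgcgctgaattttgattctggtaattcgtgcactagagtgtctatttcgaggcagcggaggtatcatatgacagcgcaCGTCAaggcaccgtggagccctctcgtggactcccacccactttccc
The E-box began 42 bases and the core element 47 bases before the start site. Of 35116 windows of the same length over all genes, 6.34% held the E-box and 21.2% the core element. None of the 5 BDNF windows held the full element (1.65% of all windows), the AP-1 site (6.57%) or the EGR site (0.72%). Of the 4 NTRK2 windows, 1 held the core element and none held the other motifs. The windows of SORT1, NTF4, NTF3 and NTRK3 held none of the motifs searched, and NGFR had no window in the set used. The gene counts do not separate the BDNF start sites, so which of them the libraries used was not analysed here.

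Among the ligands, BDNF had 51 and 93 counts in NCI-H1581 (1.51 and 2.32 CPM) and 0 and 2 counts in NCI-H1581R. In NCI-H1703 it had 362 and 361 counts (9.79 and 10.8 CPM), and in NCI-H1703R 59 and 55 counts (1.56 and 1.45 CPM). The sensitive replicates lay above the resistant ones of the same line, which is how BDNF was chosen. The pooled CPM ratio of sensitive to resistant cells was 75.2 in the NCI-H1581 line (95% exact interval 20.4 to 627, from 144 against 2 counts) and 6.82 in the NCI-H1703 line (5.59 to 8.38, from 723 against 114 counts). These intervals cover counting error only, and the first rests on 2 counts. BDNF replicates of NCI-H1703R overlapped those of sensitive NCI-H1581, with means of 1.51 ± 0.0764 and 1.92 ± 0.572 CPM (SD, n = 2 each). Without strand information, reads from BDNF and from its antisense gene BDNF-AS, which shares 988 bp (12.76%) of its exon sequence, cannot be told apart.

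NTF4 (ENSG00000225950, chromosome 19, 49061066 to 49065076, minus strand) had 18 and 45 counts in NCI-H1581, 56 and 46 in NCI-H1581R, 97 and 84 in NCI-H1703, and 152 and 144 in NCI-H1703R. Of the 3 ligands described here it had the most counts in both resistant variants, where BDNF was low. In the NCI-H1703 line the mean was 2.57 ± 0.0778 CPM in sensitive and 3.91 ± 0.154 CPM in resistant cells (SD, n = 2 each) and the replicates did not overlap. The log2 fold change was 0.64 ± 0.24 (SE), and the adjusted p of 0.181 (edgeR quasi-likelihood test, Benjamini-Hochberg over 18203 genes) missed the threshold of 0.1. With the replicate number as a block the adjusted p was 0.0761, which passes it. That fit called 6357 of all 18203 genes in this line, beside 2683 without the block. In the NCI-H1581 line the log2 fold change was 0.65 ± 0.54 with an adjusted p of 0.536, and the within-replicate differences were 1.32 and 0.052. NTF4 shares 505 bp (21.55%) of its exons with the protein-coding gene ENSG00000283663 on the same strand, which had 0 to 45 counts per library, so its count is uncertain where reads could be split.

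NTF3 (ENSG00000185652, chromosome 12, 5432108 to 5521536, plus strand) had 0 counts in all 8 libraries.

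**Figure D1:**
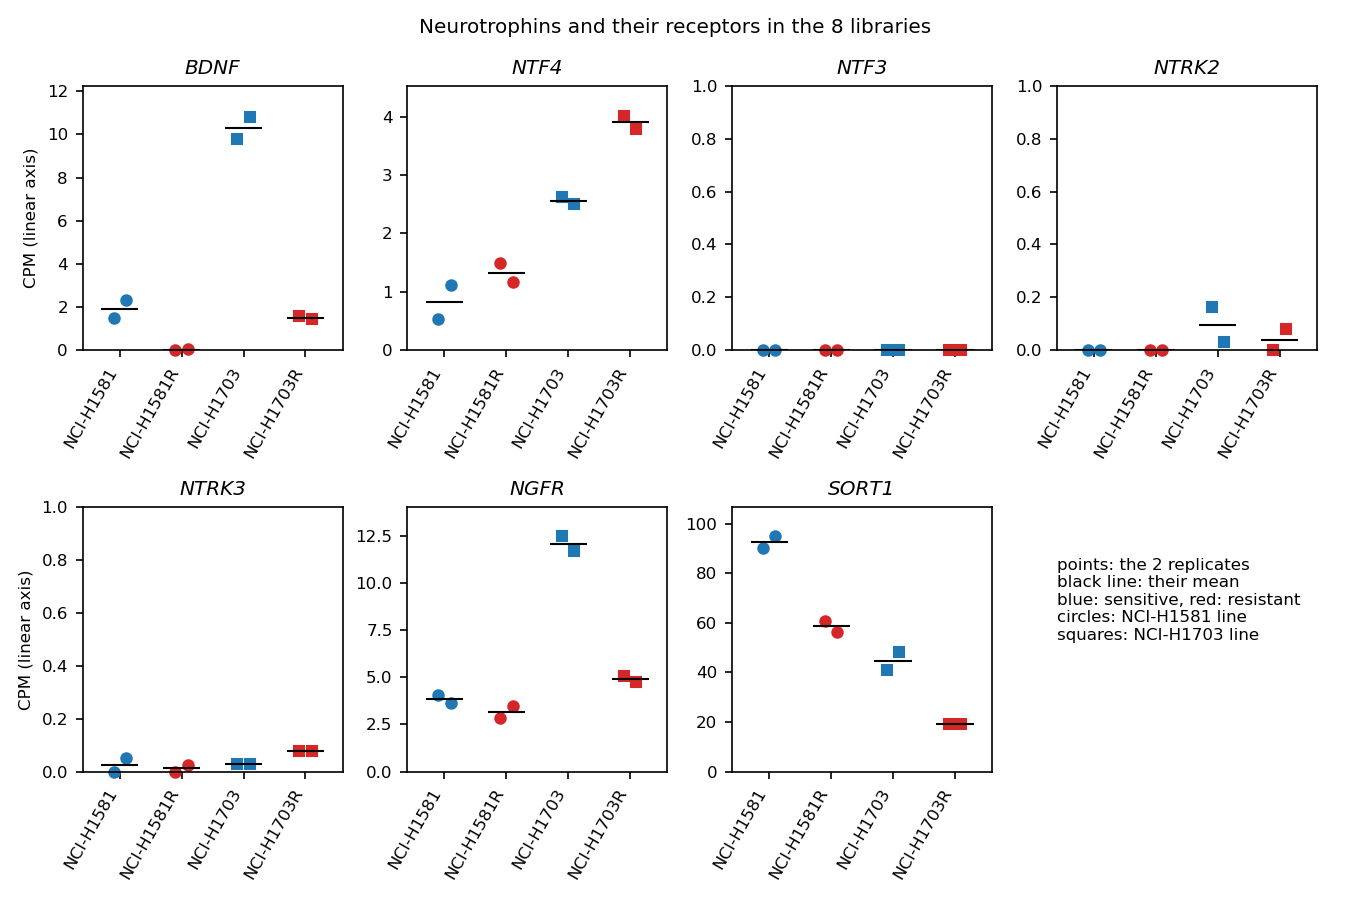
Level of each neurotrophin and receptor in the 8 libraries, in CPM on a linear axis that starts at 0 and has its own range in each panel, with points for the 2 replicates, a black line for their mean, blue for sensitive and red for resistant cells, circles for the NCI-H1581 and squares for the NCI-H1703 line. BDNF is at 0 to 0.0508 CPM in NCI-H1581R and at 9.79 and 10.8 CPM in NCI-H1703, SORT1 is lower in both resistant variants, NGFR is highest in NCI-H1703, and NTF3 is at 0 throughout.

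Among the receptors, SORT1 (ENSG00000134243, chromosome 1, 109309568 to 109397918, minus strand) fell in both lines. It had 3039 and 3802 counts in NCI-H1581 and 2290 and 2223 in NCI-H1581R, or 92.6 ± 3.36 and 58.7 ± 3.1 CPM (SD, n = 2 each). In NCI-H1703 it had 1513 and 1617 counts and in NCI-H1703R 728 and 734, or 44.6 ± 5.27 and 19.3 ± 0.0902 CPM. Replicates did not overlap between sensitive and resistant cells in either line. The log2 fold change was −0.65 ± 0.16 (SE) in the NCI-H1581 line (adjusted p 0.0526, edgeR) and −1.18 ± 0.13 in the NCI-H1703 line (adjusted p 0.00617, edgeR). The call in the NCI-H1581 line was lost without the first (adjusted p 0.302) or the second (0.383) NCI-H1581 replicate, and that in the NCI-H1703 line without the second NCI-H1703 replicate (0.104), while the fold change stayed between −0.70 and −0.61 and between −1.31 and −1.03, respectively, whichever library was left out.

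NGFR (ENSG00000064300, chromosome 17, 49495293 to 49515008, plus strand) fell in the NCI-H1703 line. It had 462 and 392 counts in NCI-H1703 and 192 and 180 in NCI-H1703R, or 12.1 ± 0.541 and 4.91 ± 0.23 CPM (SD, n = 2 each). The log2 fold change was −1.27 ± 0.16 (SE) with an adjusted p of 0.00995 (edgeR). The call was lost without the first (adjusted p 0.164) or the second (0.154) NCI-H1703 replicate, with fold changes between −1.31 and −1.23 over all 4 omissions. In the NCI-H1581 line it had 138 and 146 counts in sensitive and 108 and 137 in resistant cells, and the log2 fold change of −0.27 ± 0.31 did not pass the test (adjusted p 0.671, edgeR). The change differed between the lines by −1.02 ± 0.3 on the log2 scale (adjusted p 0.07 for the interaction in a fit of all 8 libraries, edgeR), a call that was lost with edgeR's legacy quasi-dispersions (0.108) and without any library other than the first of NCI-H1581R (0.125 to 0.212). Over all genes, 15.4% were called for this difference (6.93% with a higher and 8.47% with a lower value in the NCI-H1703 line). For SORT1 the same difference was −0.55 ± 0.18 (adjusted p 0.102), so a larger fall in the NCI-H1703 line was not shown. With the replicate block within each line its adjusted p was 0.0953, which passes the threshold. For NTF4 it was −0.032 with an adjusted p of 1. NGFR exons are overlapped on the other strand by NGFR-AS1 (202 bp) and by ENSG00000279036 (924 bp).

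The TRK receptors for these ligands were near the detection limit. NTRK2 (ENSG00000148053, chromosome 9, 84668375 to 85095751, plus strand), the receptor gene for BDNF and NT-4, had 0 counts in all 4 libraries of the NCI-H1581 line, 6 and 1 in NCI-H1703, and 0 and 3 in NCI-H1703R. NTRK3 (ENSG00000140538, chromosome 15, 87859751 to 88256791, minus strand) had 0 to 3 counts in each of the 8 libraries. No difference between groups was detectable for either gene at this depth.

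Of the 5 members tested other than BDNF, 0 rose and 1 fell in the NCI-H1581 line, where 15.1% of all genes tested were called (7.63% higher and 7.44% lower). For the NCI-H1703 line 0 rose and 2 fell, against 14.7% called over all genes (7.06% higher and 7.67% lower). The median log2 fold change of these members was −0.27 in the NCI-H1581 line and −1.18 in the NCI-H1703 line, beside 0.04 and 0 over all genes. NTRK2 and NTRK3, with too few counts for a difference to be detected, are among these 5 members and enter the medians. DESeq2 called the same numbers, and at an unadjusted p under 0.05 in the NCI-H1703 line 1 member rose and 2 fell. The shares of all genes by DESeq2 and at the unadjusted threshold are not given here, so these counts have no background beside them. Markers moved beside these members: in the NCI-H1703 line KRT18 went from 64.9 ± 0.776 to 2.68 ± 0.283 CPM and CDH2 from 49.4 ± 1.11 to 1.12 ± 0.0548 CPM (SD, n = 2 each).

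Between the sensitive lines, BDNF, NTF4 and NGFR were higher and SORT1 was lower in NCI-H1703. The choice of BDNF did not use this contrast, but it used the same BDNF values. The BDNF difference here is thus a description, and its p is not independent support. BDNF was higher by 2.40 ± 0.27 on the log2 scale (SE, adjusted p 0.000209, edgeR), a pooled CPM ratio of 5.26 (95% exact counting interval 4.39 to 6.33). NTF4 was higher by 1.58 (adjusted p 0.0174) and NGFR by 1.65 ± 0.2 (adjusted p 0.000275), while SORT1 differed by −1.05 ± 0.12 (adjusted p 0.000265, all edgeR). These are 4 of 6 members tested, BDNF among them. In this comparison 62.9% of all genes were called (32.5% higher and 30.4% lower in NCI-H1703). Replicates of the lines did not overlap for any of these 4 genes. The share of all genes without such overlap was not computed, so this is a description only.

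Between the resistant variants, in which 52.5% of all genes were called (25.9% higher and 26.7% lower in NCI-H1703R), 3 of 6 members passed. BDNF was higher in NCI-H1703R, at 114 counts in all against 2 (pooled CPM ratio 58, 95% exact counting interval 15.7 to 484, adjusted p 0.00177, edgeR). The low resistant values entered the choice of BDNF, so this difference is a description and its p is not independent support. NTF4 was higher by 1.59 on the log2 scale (adjusted p 0.0126) and SORT1 differed by −1.57 ± 0.15 (SE, adjusted p 0.000964). NGFR differed by 0.66 ± 0.27 with an adjusted p of 0.101, just outside the threshold, and passed without a filter on low counts (0.0981), with at least 10 counts in every library (0.0928) and in a single fit of all 8 libraries (0.0445).

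Per kilobase of the canonical transcript, SORT1 was the highest member in every variant, from 13.2 CPM per kb in NCI-H1581 to 2.76 in NCI-H1703R. In NCI-H1703 the order of levels was SORT1 (6.38 CPM per kb), NGFR (3.55), BDNF (2.58) and NTF4 (1.31), with no overlap between neighbours. In NCI-H1703R it was SORT1 (2.76), NTF4 (1.99), NGFR (1.44) and BDNF (0.378), again without overlap. BDNF thus lay above NTF4 in the sensitive and below it in the resistant cells. In NCI-H1581 NGFR followed SORT1 at 1.14 CPM per kb, and BDNF (0.481) and NTF4 (0.422) overlapped. In NCI-H1581R NGFR (0.932) lay above NTF4 (0.677), and BDNF was at 0.00638. NTRK2 reached at most 0.0111 and NTRK3 at most 0.00396 CPM per kb in the group means.

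Other genes of neurotrophin signalling were taken as lists, of which 76 genes were tested. In the NCI-H1581 line 4 rose and 12 fell (21.1%, beside 15.1% of all genes), and in the NCI-H1703 line 8 rose and 11 fell (25%, beside 14.7%). With the replicate block, which called 6357 of all 18203 genes in the NCI-H1703 line, 17 rose and 17 fell there. In the NCI-H1581 line 4 rose and 13 fell with the block. The same shares of all genes stand beside the counts of each list below. The median log2 fold changes, −0.026 and 0.046, were close to 0 in both lines.

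**Figure D2:**
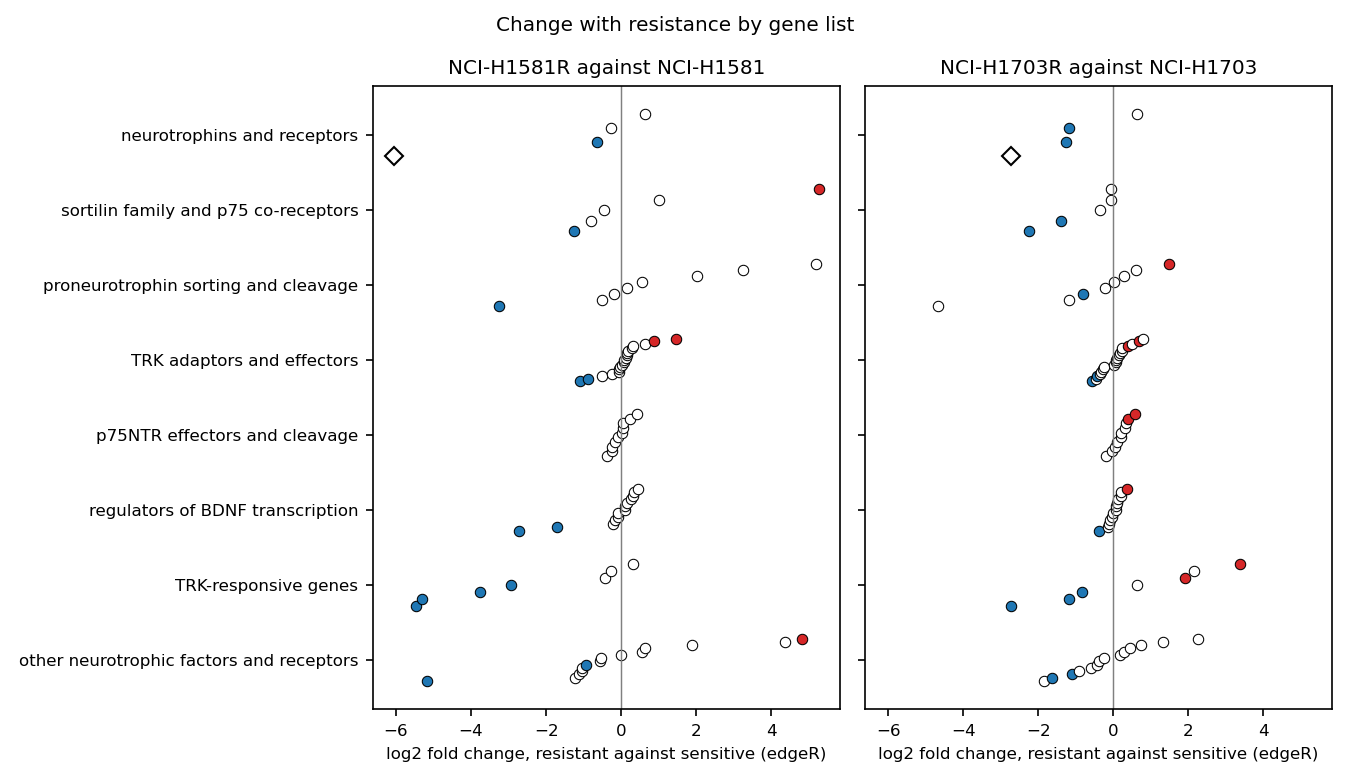
Log2 fold change of resistant against sensitive cells for each tested gene, by list, with the NCI-H1581 line in the left and the NCI-H1703 line in the right panel, filled points for genes called at adjusted p under 0.1 (red higher, blue lower), open circles for the others and an open diamond for BDNF, which was chosen on this contrast (NTRK2 and NTRK3 are left out for low counts). The called TRK-responsive genes lie on the lower side in the NCI-H1581 line and on both sides in the NCI-H1703 line, while most adaptor genes lie near 0.

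Of the 5 tested relatives of sortilin and co-receptors of p75NTR, 1 rose and 1 fell in the NCI-H1581 line and 2 fell in the NCI-H1703 line. SORCS1, a sortilin-family sorting receptor, rose from 74 and 88 counts in NCI-H1581 to 2766 and 3682 in NCI-H1581R (adjusted p 9.59e-05, edgeR), while SORT1 fell there. Its counts in the NCI-H1703 line were 0 to 2 per library. RTN4R, the Nogo receptor gene, fell by 1.26 on the log2 scale in the NCI-H1581 line (adjusted p 0.00624). LINGO1, a co-receptor of p75NTR, went from 181 and 158 counts in NCI-H1703 to 61 and 74 in NCI-H1703R (log2 fold change −1.40 ± 0.26, adjusted p 0.0294), and SORCS2 fell by 2.25 (adjusted p 0.0398). LINGO1 in the NCI-H1581 line had a log2 fold change of −0.46 with an adjusted p of 0.242.

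Of 8 genes for the sorting and cleavage of the precursors, 0 rose and 1 fell in the NCI-H1581 line, and 1 rose and 1 fell in the NCI-H1703 line. PLAT, tissue plasminogen activator, which starts extracellular cleavage of proBDNF through plasmin, went from 92 and 84 counts to 6 and 13 in the NCI-H1581 line (log2 fold change −3.25, adjusted p 0.017). CPE, carboxypeptidase E, which binds proBDNF for sorting into secretory granules, went from 164 and 158 counts in NCI-H1703 to 481 and 467 in NCI-H1703R (log2 fold change 1.48 ± 0.16, adjusted p 0.00614). PCSK6, a proprotein convertase, fell by 0.80 in the NCI-H1703 line (adjusted p 0.0545). FURIN, which cuts the precursors in the Golgi, had a log2 fold change of 0.55 in the NCI-H1581 line with an adjusted p of 0.108 (0.0664 by DESeq2). With the replicate block 2 rose and 2 fell in the NCI-H1703 line.

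Of 19 adaptors and effectors of TRK receptors, 2 rose and 2 fell in each line. No gene of the list was called in both lines by this test. With the replicate block 4 rose and 5 fell in the NCI-H1703 line, and IRS1 was then called in both lines in opposite directions (log2 fold change −1.11, adjusted p 0.00639, and 0.50, adjusted p 0.0124). In the NCI-H1581 line GAB1, a docking protein that recruits PI3 kinase, rose by 1.47 on the log2 scale (adjusted p 0.0552), with 49 and 98 counts in sensitive and 224 and 195 in resistant cells, and SHC2 rose by 0.88 (adjusted p 0.0246). SHC1, the widely used SHC adaptor, fell by 0.88 (adjusted p 0.0423), and IRS1 fell by 1.11 (adjusted p 0.00809). The GAB1 call was lost without the first (adjusted p 0.315) or the second (0.138) NCI-H1581 replicate. In the NCI-H1703 line PLCG2, a phospholipase C gamma, had 1172 and 959 counts in sensitive and 1901 and 1692 in resistant cells and rose by 0.69 on the log2 scale (adjusted p 0.0224), and KIDINS220, a TRK-binding scaffold, rose by 0.38 (adjusted p 0.0607). CRKL, a CRK-family adaptor, fell by 0.56 (adjusted p 0.0205), and RAPGEF1, its RAP1 exchange factor partner, by 0.45 (adjusted p 0.0328).

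Of 10 tested p75NTR effectors and cleavage genes, 0 were called in the NCI-H1581 line (edgeR, also 0 at an unadjusted p under 0.05 and 0 by DESeq2). Within the NCI-H1703 line 2 rose and 0 fell: MAGED1, a p75NTR-binding protein, by 0.58 (adjusted p 0.0147), and ADAM17, which sheds the p75NTR ectodomain, by 0.38 (adjusted p 0.057). With the replicate block, which called 6357 of all 18203 genes in that line beside 2683 without it, 5 rose and 1 fell there. NDN of this list was not analysed here.

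Of 13 tested regulators of BDNF transcription, 0 rose and 2 fell in the NCI-H1581 line, and 1 rose and 1 fell in the NCI-H1703 line. MEF2C, an activity-dependent activator, went from 112 and 112 counts to 18 and 17 in the NCI-H1581 line (log2 fold change −2.73, adjusted p 0.0142). BHLHE40, a repressor known to bind E-boxes, fell by 1.70 in the NCI-H1581 line (adjusted p 0.00757) and rose by 0.37 in the NCI-H1703 line (adjusted p 0.051). CREB1, known to bind cAMP response elements, fell by 0.38 in the NCI-H1703 line (adjusted p 0.0908). With the replicate block 2 rose and 1 fell in that line. The BHLHE40 change differed between the lines by 2.06 on the log2 scale (adjusted p 0.00318, edgeR interaction).

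The 7 genes of the TRK-responsive list are immediate early genes and VGF, which TRK signalling induces in neurons and which other growth factor receptors, FGF receptors among them, induce too. In the NCI-H1581 line 0 rose and 4 fell, and in the NCI-H1703 line 2 rose and 3 fell. With the replicate block 3 rose and 3 fell in the NCI-H1703 line. VGF, a secreted neuropeptide precursor, went from 24280 and 22860 counts to 3230 and 3230 in the NCI-H1581 line (log2 fold change −2.93 ± 0.2, adjusted p 0.000323) and from 362 and 255 to 48 and 49 in the NCI-H1703 line (−2.73 ± 0.26, adjusted p 0.00418). Its change was not shown to differ between the lines (difference 0.18 ± 0.33, adjusted p 0.848). ARC, a synaptic immediate early gene, fell by 3.75 (adjusted p 0.000546) and by 0.83 (adjusted p 0.0758), from 1392 and 1095 counts to 96 and 98, and from 202 and 199 to 118 and 120.

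EGR1 and EGR3, zinc finger factors of the immediate early response, moved in opposite directions in the lines. EGR1 went from 1607 and 2351 counts to 59 and 43 in the NCI-H1581 line (log2 fold change −5.32, adjusted p 0.000127) and from 340 and 335 to 1118 and 1546 in the NCI-H1703 line (1.90, adjusted p 0.00444). EGR3 went from 75 and 150 counts to 1 and 4 (−5.46, adjusted p 0.00392) and from 3 and 2 to 18 and 39 (3.38, adjusted p 0.0557). The interaction was called for both genes (adjusted p 1.51e-05 and 0.000794, edgeR). NR4A1, an immediate early nuclear receptor, fell by 1.17 in the NCI-H1703 line (adjusted p 0.00898). FOS and EGR2 did not pass in either line without the replicate block. With the block EGR2 passed in the NCI-H1703 line (log2 fold change 2.11, adjusted p 0.0932, edgeR). The calls of EGR1, EGR3, CPE, PLCG2, LINGO1, BHLHE40 and ARC for the NCI-H1703 line were lost when the first or when the second NCI-H1703 replicate was left out (adjusted p from 0.111 to 0.328) and that of VGF without the first (0.102). ARC was also lost without the first or the second NCI-H1703R replicate (0.223 and 0.196), LINGO1 without the first (0.127), and EGR3 (0.147) and BHLHE40 (0.132) without the second.

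**Figure D3:**
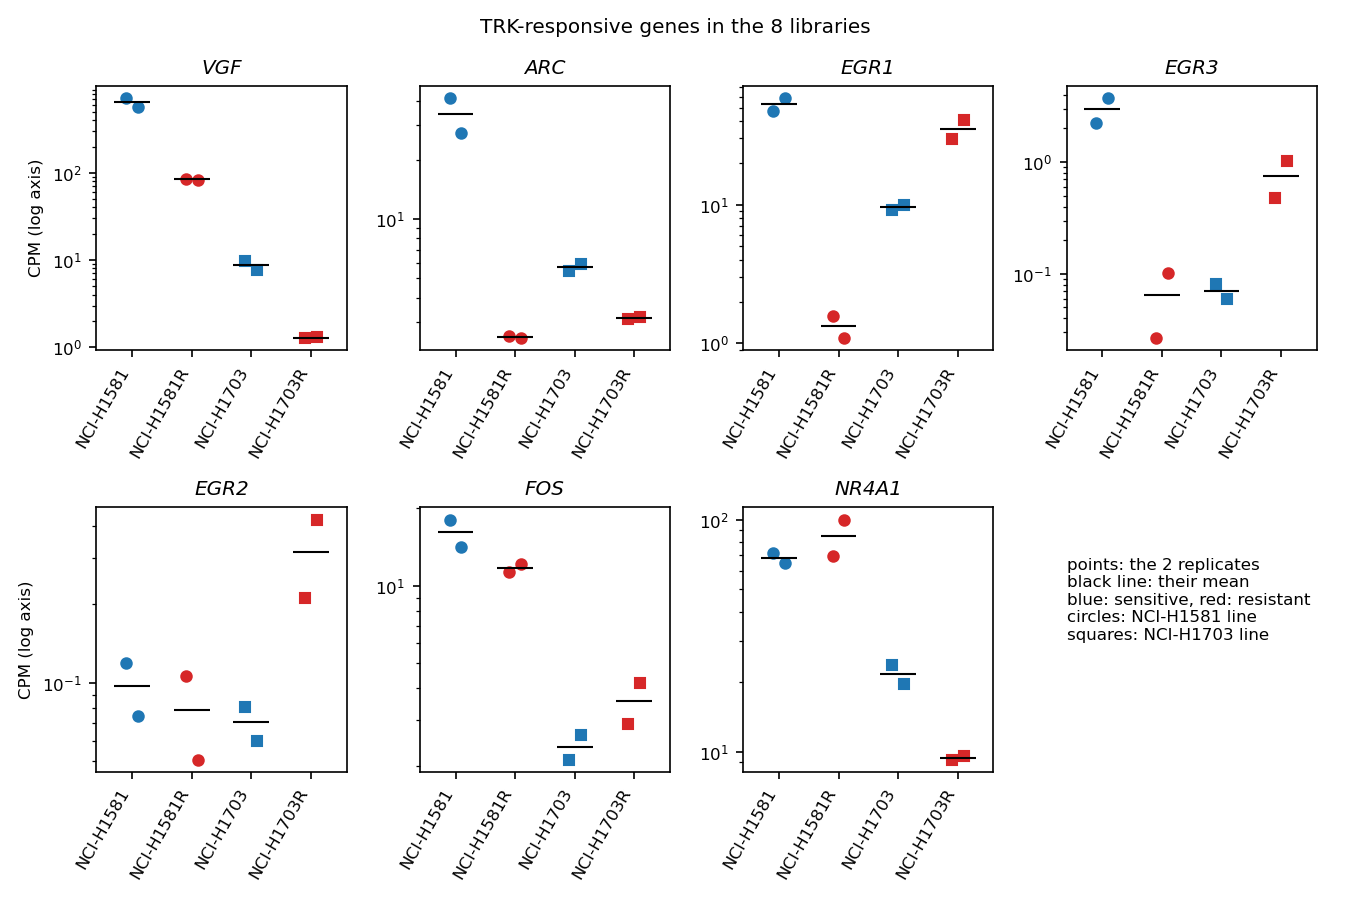
Level of the 7 TRK-responsive genes in the 8 libraries, in CPM on a log axis with its own range in each panel, with points for the 2 replicates, a black line for their mean, blue for sensitive and red for resistant cells, circles for the NCI-H1581 and squares for the NCI-H1703 line. VGF and ARC are lower in resistant than in sensitive cells of both lines, whereas EGR1 and EGR3 are lower in NCI-H1581R and higher in NCI-H1703R than in their sensitive lines.

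The genes whose levels followed BDNF most closely over the 8 libraries, by Pearson's r of log2 CPM among 13375 genes with a mean of at least 1 CPM, were NSD3 (0.989), PLAUR (0.981), TEAD1 (0.978), GINS4 (0.977) and OAS3 (0.977). The points share libraries and fall into 4 variants, so r mostly reflects the differences between the variant means. NSD3, a histone methyltransferase gene, was at 175 and 201 CPM in NCI-H1581, 75.4 and 107 in NCI-H1581R, 290 and 303 in NCI-H1703, and 168 and 170 in NCI-H1703R. PLAUR, the urokinase receptor gene, was at 21.4 and 17.8, 2.58 and 3.25, 32.3 and 34.3, and 12.9 and 17.3 CPM in the same order. With Spearman's rho, or after centring within each line, 0 of the 5 genes stayed among the 5 closest, so these names depend on the measure. Of the members, NGFR was closest to BDNF (r 0.829), NTF4 had r 0.32 and SORT1 r −0.157.

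**Figure D4:**
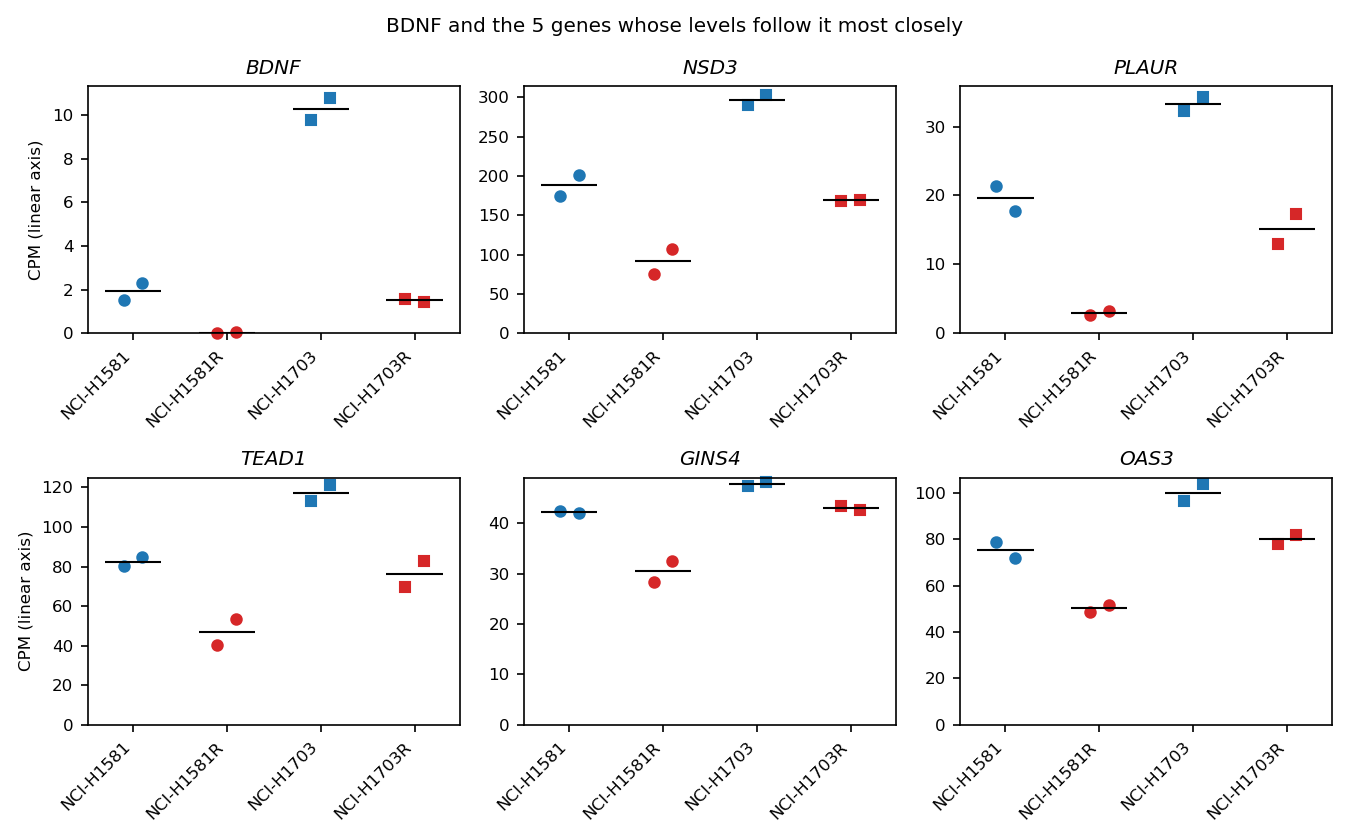
Level of BDNF and of the 5 genes closest to it by Pearson's r over the 8 libraries, in CPM on a linear axis that starts at 0 and has its own range in each panel, with points for the 2 replicates, a black line for their mean, blue for sensitive and red for resistant cells, circles for the NCI-H1581 and squares for the NCI-H1703 line. All 6 genes are highest in NCI-H1703 and lowest in NCI-H1581R, and the span between these variants is far wider for BDNF than for GINS4 or OAS3.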

How the data were processed

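RNA of 4 cell variants with 2 replicates each was sequenced as 100 bp paired reads. The authors trimmed reads with cutadapt, ran Salmon with GRCh38 as reference and obtained gene-level values through tximport. The table they deposited holds estimated counts as whole numbers without normalisation. Versions, annotation, strandedness and the tximport scaling are not given in the sources used here. Groups came from the labels. Replicates differed by more than sampling noise (chi-square divided by its degrees of freedom, 24.6 to 103).

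The 18203 genes whose counts summed to 10 or more across all libraries were tested with edgeR 4.0.16 (R 4.3.3): TMM normalisation, quasi-likelihood test, two-sided, Benjamini-Hochberg adjustment over all of them, call at adjusted p under 0.1. Sensitive and resistant cells were compared within each line's 4 libraries, the lines within sensitive and within resistant cells, and the difference between the lines as an interaction over all 8. CPM used TMM factors over the 8 libraries, and correlations log2 CPM with a prior count of 2. Positions and lengths came from GENCODE v44 and promoter windows from RefSeq GRCh38.p14. p-values measure the spread between 2 cultures per variant.

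The methods state that the procedure was repeated for the second replicate. Pairing by equal numbers assumes that they mark a shared run, which neither the methods nor the labels state. The p-values printed come from fits without this pairing unless a replicate block is named. Blocked values stand beside the list counts within a line that they move, and beside some single genes. Deviations of equal numbers correlated at r 0.15 and 0.23 within the lines over 11174 genes and at −0.338 to −0.049 between lines.

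The members and the gene lists were chosen with earlier results of these data known. The text names all members, the 3 largest rises and 3 largest falls per line among called list genes with a mean of at least 1 CPM, list genes called in both lines, the genes named in a list's account, the 5 genes closest to BDNF and genes overlapping a member. BDNF-AS and NTRK3-AS1 were not analysed here, and some genes that the rule selects are left out. Alternatives were DESeq2 1.42.0, RLE scaling, other filters, a replicate block, a single fit, a threshold of 0.05 and leaving out each replicate, with the block within each line and legacy quasi-dispersions chosen after seeing the data.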

Additional observations from a re-analysis of the deposited data

Results flagged for a closer look

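Of the 81 tested members and list genes other than BDNF, 24 (29.6%) differed between the lines in their change with resistance by edgeR's interaction test at adjusted p under 0.1, beside 15.4% of all genes tested. Values are the log2 change in the NCI-H1703 line minus that in the NCI-H1581 line. Among the members this was NGFR (−1.02, adjusted p 0.07). Of the sortilin relatives and p75NTR co-receptors, the differences were −3.29 for SORCS2 (0.0567), 1.18 for RTN4R (0.00609) and −0.96 for LINGO1 (0.0733). Of the precursor-processing genes, they were −0.79 for FURIN (0.0321) and 0.77 for PCSK7 (0.046). PCSK2 was called too (0.0786) but had 0 counts in both NCI-H1581 replicates, so its fitted value is not given. Of the adaptors, they were 0.88 for SHC1 (0.0638), −1.26 for GAB1 (0.0785), 0.72 for SH2B1 (0.0746), 0.91 for PLCG2 (0.0195), −0.62 for RAPGEF1 (0.0712), −0.71 for CRKL (0.0545) and 1.59 for IRS1 (0.0018). ADAM17 differed by 0.75 (0.0344), MEF2C by 2.57 (0.00698) and BHLHE40 by 2.06 (0.00318). Of the TRK-responsive genes, ARC differed by 2.90 (0.00271), EGR1 by 7.20 (1.51e-05), EGR3 by 8.82 (0.000794) and NR4A1 by −1.51 (0.0113). GFRA1 differed by −6.46 (0.000352), CNTFR by 5.88 (0.00131) and MANF by 1.10 (0.0375). ARC fell in both lines and more in NCI-H1581R, whereas EGR1, EGR3, BHLHE40 and GFRA1 were called in opposite directions. The GAB1 difference was lost with the replicate block (0.113) or the block within each line (0.107).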

How the results depend on the processing

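With 2 replicates per variant, calls near the threshold depended on single libraries, while the fold changes of SORT1 and NGFR kept their sign. In the NCI-H1581 line, 2743 genes were called, and 1793 genes with 0 members at adjusted p under 0.05, 4539 in a single fit of all 8 libraries, and 1122 to 5186 genes with 0 to 1 members when a replicate was left out. In the NCI-H1703 line, 2683 genes were called, 6357 with the replicate block, 1640 at 0.05, 1730 in the single fit, and 274 to 1686 genes with 0 to 2 members when a replicate was left out. The resistant variants differed in 9564 genes (6120 to 10361) and the sensitive lines in 11444 (9603 to 10970). For the difference between the lines, 2803 genes were called (1571 to 4141 when a replicate was left out, with 0 to 1 members), and of the members 1 was called, 2 with at least 10 counts in every library or with the block within each line, and 0 at 0.05. With a replicate left out, the lone library was assumed to vary like the other group. The NTF4 difference between the lines, −0.032, turned to 0.016 with RLE scaling, 0.0089 without a filter and 0.0078 with at least 10 counts in every library, and ranged from −0.70 to 0.37 when a replicate was left out. Of the 5 genes closest to BDNF, 0 stayed with Spearman's rho and 0 after centring within lines. The replicate block passed NTF4 in the NCI-H1703 line (adjusted p 0.0761) and changed no other call of a member within a line. BDNF in NCI-H1581R, NTRK2 and NTRK3 are limited by depth. The causes of these differences were not tested.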

Other observations

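Of 14 tested genes of other neurotrophic factors and receptors, 1 rose and 2 fell in the NCI-H1581 line and 0 rose and 2 fell in the NCI-H1703 line. GFRA1, the co-receptor gene for GDNF, had 0 and 5 counts in NCI-H1581 and 75 and 77 in NCI-H1581R, a fitted log2 difference of 4.81 (adjusted p 0.0105, edgeR) that rests on a near-zero level, and went from 1856 and 2079 counts in NCI-H1703 to 629 and 715 in NCI-H1703R (−1.63, adjusted p 0.00374). CNTFR, the receptor subunit gene for ciliary neurotrophic factor, went from 1326 and 1382 counts to 52 and 26 in the NCI-H1581 line (−5.17, adjusted p 0.000241). MANF, a stress-induced neurotrophic factor, fell by 0.93 in the NCI-H1581 line (adjusted p 0.025), and NRTN, a GDNF-family ligand, fell by 1.09 in the NCI-H1703 line (adjusted p 0.0902). With the replicate block 1 rose and 3 fell in each line. Over all genes, 15.1% were called in the NCI-H1581 and 14.7% in the NCI-H1703 line, and 6357 of 18203 in the latter with the block.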
